A study of Mus musculus with 241 samples.

Results

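The cells described here are 752 thymocytes from 2 droplet (10x) libraries, chosen by measured values: their RNA held at least 3 UMIs of Cd3d, Cd3e and Cd3g together and at least 2 UMIs of Gzma and Sh2d1a together. They were 292 of 4878 kept cells in replicate 1, or 5.99% (95% exact Clopper-Pearson interval 5.34 to 6.69%), and 460 of 8434 in replicate 2, or 5.45% (4.98 to 5.96%). Barcodes with fewer than 1000 genes, or with 10% or more of their UMIs from mitochondrial genes, were left out first. The members are set against the Cd3+ cells with under 2 UMIs of Gzma and Sh2d1a (the other Cd3+ cells, 228 and 581), and against all cells with under 3 Cd3 UMIs (4358 and 7393). Of the cells with under 3 Cd3 UMIs, 64 and 73 passed the Gzma and Sh2d1a threshold and are called Cd3-low Gzma+ cells. Since these 5 genes chose the members, their own levels are given as a description and were not tested. The tests concern the remaining genes of the same cells, and any gene whose level follows Cd3 from cell to cell had to differ.

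The 10x cells came from thymus of C57BL/6 WT mice, sorted as lineage-negative (Lin-), 7AAD- (a dye that enters dead cells), CD44+ and Kit+. The series also holds single cells of the same strain, genotype and gate captured on a C1 chip. A further 12 bulk RNA libraries come from thymus of C57BL/6 mice carrying Bcl11b yfp/yfp, a reporter of Bcl11b. In those mice the CD44+ Kit+ gate was split into CD25- cells (early T-lineage progenitors, ETP; total, Flt3+ or Flt3-) and CD25+ cells (DN2a; YFP- or YFP+). The ages of the animals are not given in the sources used here. Nothing ties the 2 10x libraries to separate animals, so p-values do not measure a spread between animals. With library as a block, they rest on how far class differences varied between these libraries, which was near counting error.

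Cd3d, Cd3e and Cd3g encode the invariant chains that carry the signal of the pre-T-cell receptor and of the T-cell receptor, and in mouse thymocytes they come on as progenitors commit to the T lineage. Gzma encodes granzyme A, a serine protease of cytotoxic granules. Sh2d1a encodes SAP, the adaptor of the SLAM family of receptors, which innate-like T cells and natural killer T cells need to develop. In mouse thymus, CD44+ Kit+ cells are early progenitors, most of which have not yet committed to the T lineage.

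On mm10, in the gene models of the deposited bulk table, the Cd3 genes lie side by side at chr9:44969572-44980431 (Cd3g), chr9:44981786-44987052 (Cd3d) and chr9:44998743-45009590 (Cd3e). Gzma spans chr13:113093824-113100981 and Sh2d1a spans chrX:42505322-42522095. These are whole gene spans, and the 10x counts are sums over each gene.

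Few cells that passed the Gzma and Sh2d1a threshold lay near the Cd3 threshold, whereas many Cd3+ cells lay near the Gzma and Sh2d1a threshold. Among cells with at least 2 UMIs of Gzma and Sh2d1a, 10 and 2 cells of replicate 1 had 1 and 2 Cd3 UMIs, and 6, 3 and 0 had 3, 4 and 5. In replicate 2 these numbers were 15 and 2 below the threshold and 5, 7 and 7 at or above it, while the members' median was far higher, at 22 (replicate 1) and 18 (replicate 2) Cd3 UMIs. Of the Cd3+ cells of replicate 1, 14.6% had 2, 9.42% had 3 and 7.88% had 4 UMIs of Gzma and Sh2d1a, against 21.9% with 0 and 21.9% with 1. In replicate 2, 15.2% had 2, 8.55% had 3 and 6.72% had 4 UMIs, against 33.3% with 0 and 22.5% with 1. The threshold thus runs through a continuous distribution of low counts.

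Most members held both transcripts. Both genes were detected in 63.7% and 57.2% of members in replicates 1 and 2, Gzma alone in 22.95% and 27.6%, and Sh2d1a alone in 13.4% and 15.2%. Over all Cd3+ cells, Sh2d1a was detected in 60% and 50.0% of the cells with Gzma, against 45.7% and 32.6% of those without it. Within cells of 4000 to 8000 UMIs, the shares were 61.7% and 51.7% with Gzma, against 59.4% and 31.7% without it. The excess of Sh2d1a among Gzma+ cells was thus small in replicate 1 at like depth and larger in replicate 2.

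Depth differed between the classes and bears on every comparison within the Cd3+ cells. Members had a median of 6250 (replicate 1) and 4726 (replicate 2) UMIs, the other Cd3+ cells 4025 and 3530, the Cd3-low Gzma+ cells 9463 and 7995, and the remaining cells 8666 and 6304. The rule itself asks for UMIs, so deeper Cd3+ cells pass it more easily. The libraries held 5006 and 8867 barcodes with 43734920 and 55522900 UMIs, and 57 barcodes occur in both libraries, with 0 of them a member in either.

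Like the other Cd3+ cells, the members held transcripts of pre-T-cell receptor and recombination genes. The defining factors of innate-like T cells and natural killer cells were at or near 0. The 10 pre-T-cell receptor and recombination genes summed to 1663 and 1720 CPM in members and 2459 and 1943 CPM in the other Cd3+ cells. In the cells low in both Cd3 and Gzma and Sh2d1a they summed to 739 and 766 CPM. Zbtb16, which encodes PLZF, the defining factor of natural killer T and related innate-like T cells, had 1 UMI (replicate 1) and 0 UMIs (replicate 2) in all members, against 2.97 and 3.09 CPM (counts per 1000000 UMIs of the class) in the cells low in both Cd3 and Gzma and Sh2d1a. Tbx21 and Eomes, the T-box factors of cytotoxic lymphocytes, had 0 UMIs in both libraries. A count of 0 in members allows up to 1.27 CPM in replicate 1 and 1.11 CPM in replicate 2 (3 UMIs per library, counting error only). Prf1 (perforin), Gzmb (granzyme B), Klrb1c (NK1.1) and Ncr1 (NKp46) also stood at 0 UMIs in both libraries, and Il2rb, a receptor chain for interleukin-2 of mature innate lymphocytes, had 2 and 4 UMIs.

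The co-receptor genes of mature T cells were scarce as well. Cd4 had 0 UMIs in both libraries and Cd8a had 2 and 1. Cd8b1, the beta chain of the CD8 co-receptor, was present in 12 of 292 and 4 of 460 members, against 1 of 228 and 0 of 581 of the other Cd3+ cells. Cd163l1, a scavenger receptor of some gamma-delta T cells, had 17 and 26 UMIs. The constant regions of the T-cell receptor genes are not analysed here.

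The 14 innate-like T factors summed to 85.4 (replicate 1) and 88.1 (replicate 2) CPM in members, 101.5 and 110 CPM in the other Cd3+ cells, 95.8 and 139.1 CPM in the Cd3-low Gzma+ cells and 117.02 and 135.5 CPM in the remaining cells, and 3 and 5 of the 14 genes were at 0 in members. The 16 natural killer and innate lymphoid genes summed to 161.96 and 211.5 CPM in members, 266 and 364 CPM in the other Cd3+ cells, 596 and 769 CPM in the Cd3-low Gzma+ cells and 825 and 881 CPM in the remaining cells, with 10 and 9 genes at 0 in members. Members were lowest in both lists in both libraries. The 11 gamma-delta T-cell genes measured, of 16 listed, summed to 266 and 265 CPM in members, 343 and 313 CPM in the other Cd3+ cells, 167.7 and 181.4 CPM in the Cd3-low Gzma+ cells and 265 and 272 CPM in the cells low in both. On that list members lay above the Cd3-low Gzma+ cells and below the other Cd3+ cells. Most of the sum was Cd27, which is also in the T-cell receptor signalling list. Cd27 stood at 234.3 and 227.1 CPM in members and 310 and 277 CPM in the other Cd3+ cells. Il23r, Il17a and Ccr6 were at 0 UMIs in members in both libraries. The order of the classes on this list thus does not speak for or against a gamma-delta identity. With Zbtb16, Tbx21 and Eomes at or near 0, the data go against the name "innate-like T cells", and the cells are called here by the genes that chose them.

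Markers of other lineages were lower in members than in the other Cd3+ cells, but not in every list lower than in the cells low in both. Granulocyte and monocyte genes summed to 37.6 and 41.99 CPM in members, against 45.3 and 71.4 CPM in the other Cd3+ cells and 340 and 321 CPM in the cells low in both. B-cell genes summed to 43.98 and 45.7 CPM in members, against 69.5 and 59.02 CPM in the other Cd3+ cells and 35.6 and 35.5 CPM in the cells low in both. Dendritic-cell genes summed to 294 and 289 CPM in members, against 396 and 321 CPM in the other Cd3+ cells and 228 and 223.5 CPM in the cells low in both. Genes of epithelium, endothelium and stroma summed to 77.8 and 95.5 CPM in members, against 106.1 and 134.8 CPM in the other Cd3+ cells and 62.7 and 76.5 CPM in the cells low in both. Genes of erythroid, megakaryocyte and mast cells summed to 53.7 and 48.3 CPM in members, against 140.5 and 113.3 CPM in the other Cd3+ cells and 203.9 and 180.98 CPM in the cells low in both. In both libraries members held less of each of these 5 lists than the other Cd3+ cells, and more of the B-cell, dendritic and stromal lists than the cells low in both.

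**Figure D1:**
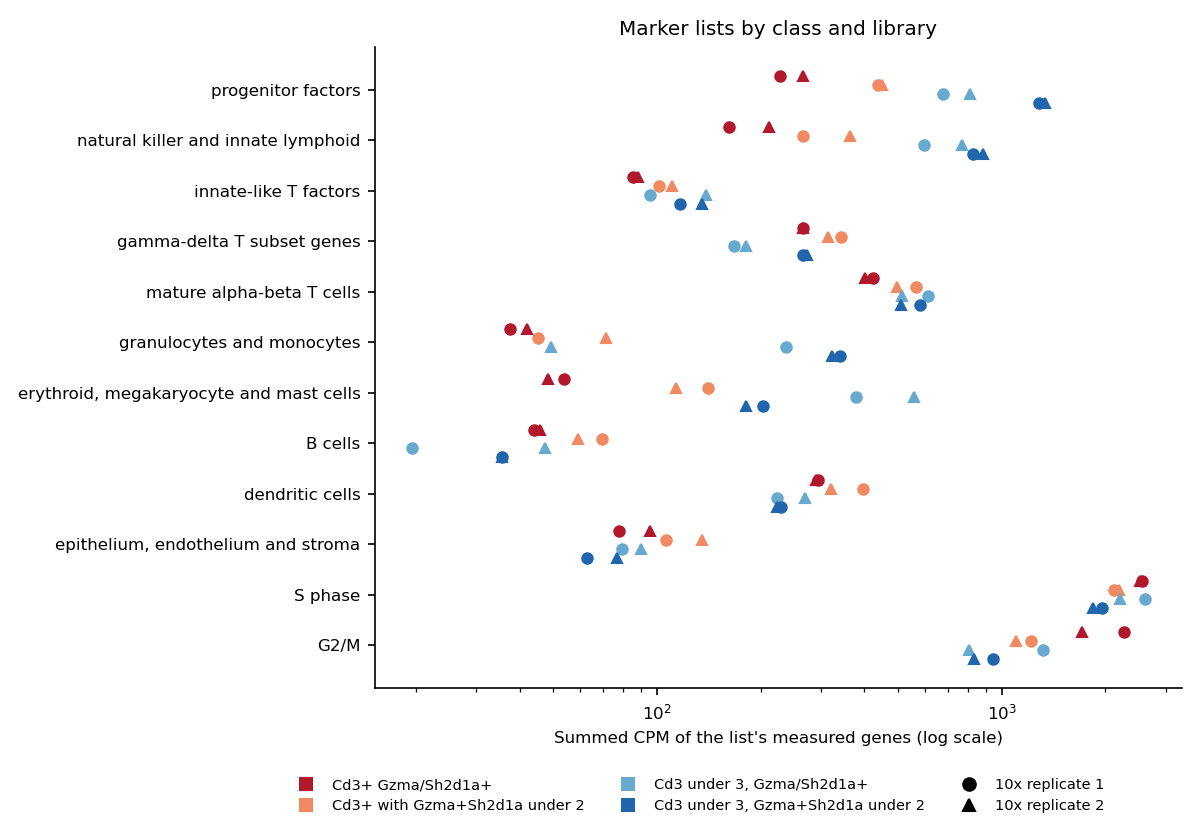
Summed CPM (log axis) of 12 marker lists in the 4 classes of cells, with members on top in red and circles and triangles for 10x replicates 1 and 2. Members lie lowest for progenitor factors (227.1 and 266 CPM), natural killer and innate lymphoid genes (161.96 and 211.5 CPM) and innate-like T factors (85.4 and 88.1 CPM), and highest for G2/M genes (2256 and 1708 CPM).

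The gene products of the sort itself were scarce in members. Kit, the receptor tyrosine kinase of the gate, stood at 19.5 and 19.7 CPM in members, 26.5 and 45.2 CPM in the other Cd3+ cells, 68.9 and 132.1 CPM in the Cd3-low Gzma+ cells and 102.6 and 110 CPM in the remaining cells. Cd44, the adhesion receptor of the gate, stood at 7.19 and 7.80 CPM in members, 20.3 and 14.2 CPM in the other Cd3+ cells and 61.02 and 64 CPM in the cells low in both. In both libraries members were lowest for both genes. Detection was also counted after thinning cells of at least 4000 UMIs to 4000, with each cell kept in the class of its full counts. Kit was then detected in 6.38% and 6.92% of members, 11.1% and 16.9% of the other Cd3+ cells and 36.1% and 33.9% of the cells low in both. Without thinning, the shares were 12.7% and 9.13% of members, 10.5% and 15.3% of the other Cd3+ cells and 57.7% and 48.8% of the cells low in both. RNA and surface protein need not agree, and the protein level of Kit was not measured here.

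By summed CPM, the other genes of the label were highest in members. Lef1, a partner of Tcf7 in T-lineage transcription, stood at 156.9 and 142.3 CPM in members, 92.9 and 112.6 CPM in the other Cd3+ cells, 4.49 and 5.28 CPM in the Cd3-low Gzma+ cells and below 1 CPM in the cells low in both. Id3, an inhibitor of E proteins that rises with receptor signals, stood at 74 and 72.1 CPM in members, 31.2 and 38.3 CPM in the other Cd3+ cells and 8.98 and 10.6 CPM in the Cd3-low Gzma+ cells. Cd28, a co-stimulatory receptor, stood at 57.5 and 59.1 CPM in members, 32.8 and 37.2 CPM in the other Cd3+ cells and 4.49 and 7.04 CPM in the Cd3-low Gzma+ cells. Thy1, a surface glycoprotein of T cells, stood at 628 and 648 CPM in members, 484 and 516 CPM in the other Cd3+ cells and 180 and 172.6 CPM in the Cd3-low Gzma+ cells. These genes were named with results of the same libraries in view, so their order is a description.

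**Figure D2:**
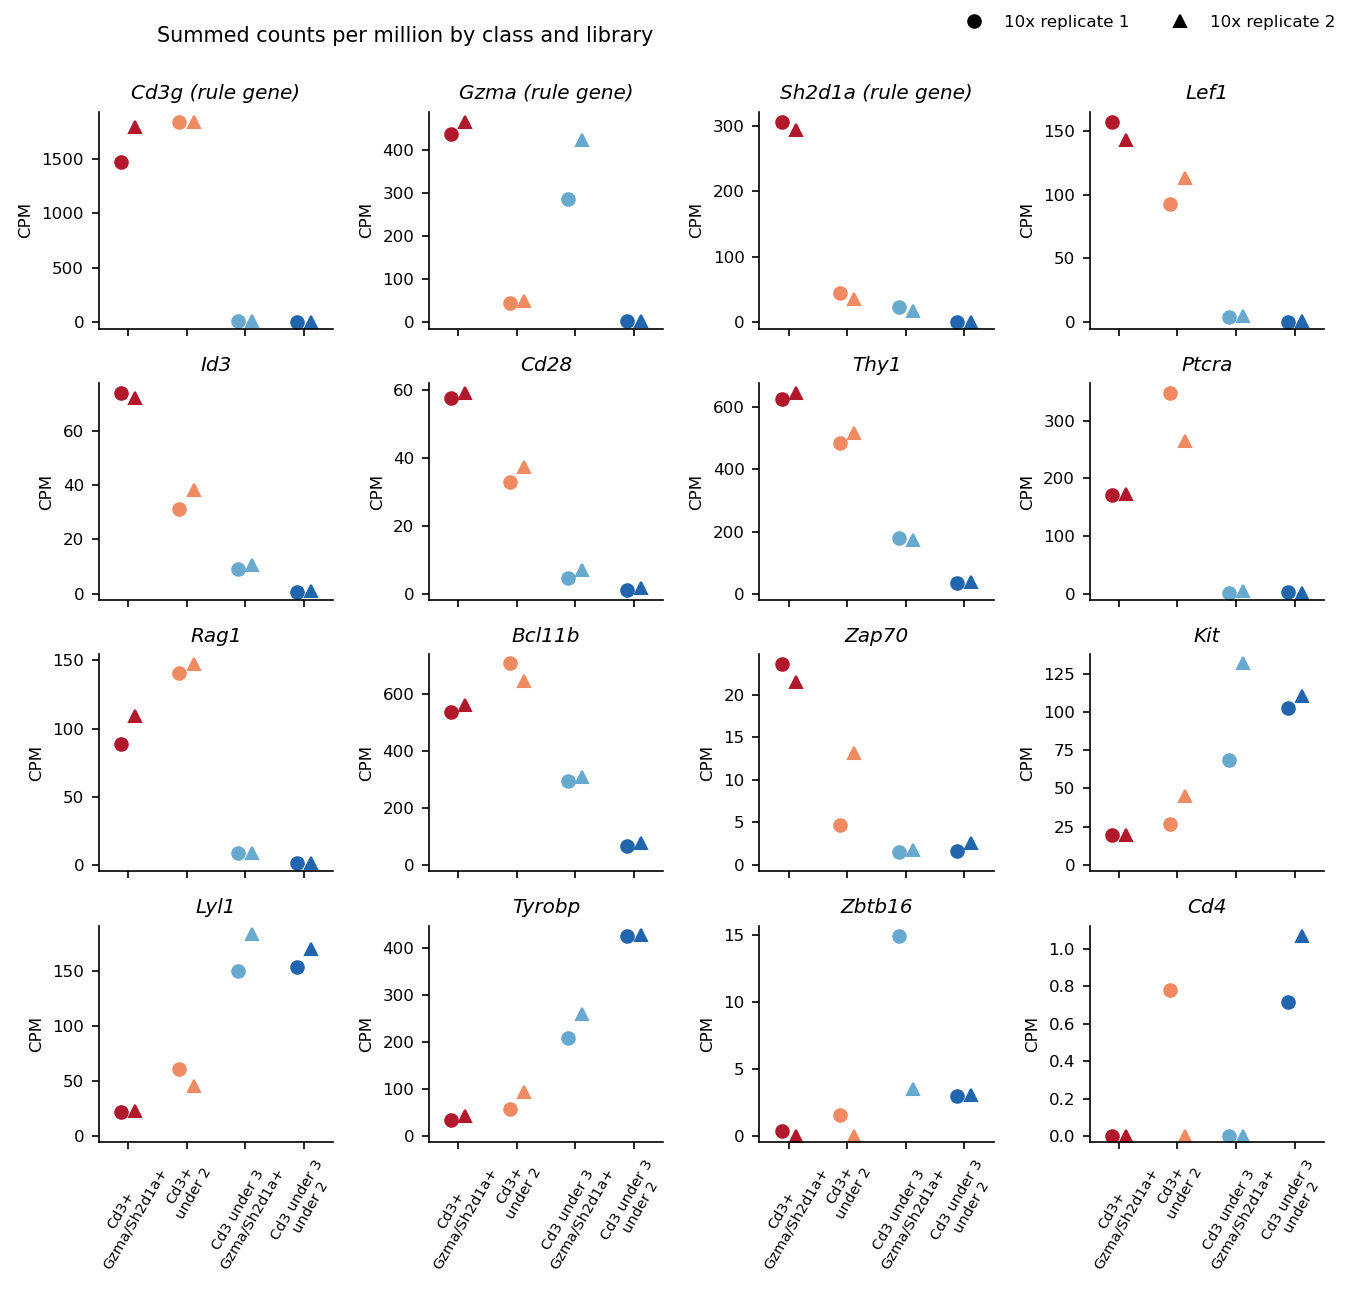
Summed CPM of 16 genes (linear axes) in the 4 classes of cells, members at the left, with circles and triangles for 10x replicates 1 and 2. Lef1 (156.9 and 142.3 CPM), Id3 (74 and 72.1 CPM) and Thy1 (628 and 648 CPM) are highest in members, Ptcra and Rag1 are highest in the other Cd3+ cells, and Kit and Lyl1 are highest in cells low in Cd3.

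Against all cells with under 3 Cd3 UMIs, the members had far more transcript of the pre-T-cell receptor, of its signalling chain and of cell division, and far less of the progenitor factors. Of 7222 genes tested with edgeR's quasi-likelihood test, 1678 were higher in members, or 23.2%, and 1767 were lower, or 24.5%, at a Benjamini-Hochberg adjusted p under 0.05. Of the 10 pre-T-cell receptor and recombination genes, 8 rose and 1 fell, with a median log2 fold change of 1.86. Of the 18 progenitor factors, 13 were tested and all 13 fell, with a median of -2.94, while the median of all genes was -0.00.

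Ptcra encodes the invariant partner of the T-cell receptor beta chain in the pre-T-cell receptor. It stood at 171.3 and 173.6 CPM in members, against 2.67 and 1.75 CPM in cells with under 3 Cd3 UMIs, a log2 fold change of 6.19 ± 0.11 (SE; edgeR adjusted p = 4.03e-201). Rag1, which encodes a subunit of the recombinase, stood at 88.8 and 108.9 CPM in members, against 1.54 and 1.73 CPM (log2 fold change 5.80 ± 0.13). Dntt, the template-independent polymerase that adds bases at receptor joints, stood at 620 and 734 CPM in members, against 246 and 317 CPM (1.16 ± 0.05). Ptcra and Rag1 were near absent outside the Cd3+ cells, whereas Dntt was not.

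T-lineage factors and signalling genes followed. Of 19 T-lineage factors tested, 11 rose and 5 fell, and of 16 T-cell receptor signalling genes, Cd28 among them, 11 rose and 1 fell. Bcl11b, the factor of T-lineage commitment, stood at 537 and 562 CPM in members, against 70.3 and 79.2 CPM (log2 fold change 2.76 ± 0.06). Lat, the membrane scaffold of receptor signalling, stood at 515 and 618 CPM in members, against 122.02 and 133.2 CPM (2.03 ± 0.05). Skap1, an adaptor of integrin activation, and Themis, a regulator of thymocyte selection, had log2 fold changes of 3.21 ± 0.08 and 3.68 ± 0.12. Il2ra, which encodes CD25, rose far less, at 303 and 299 CPM in members, against 210.5 and 193.3 CPM (0.46 ± 0.06). Slamf6, a SLAM receptor that signals through SAP, stood at 90.9 and 73.95 CPM in members, against 11.9 and 7.56 CPM (2.98 ± 0.11), and Cd244, a further SLAM receptor, at 4.65 and 14.1 CPM in members, against 96.4 and 101.9 CPM (-3.47 ± 0.14; -4.11 in replicate 1 and -2.77 in replicate 2).

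Among the falls were Spi1 (PU.1), Lyl1, Hhex and Mef2c, all transcription factors of progenitors, at log2 fold changes of -3.23, -2.97, -3.34 and -2.99. Lyl1 stood at 21.6 and 23.04 CPM in members, against 153.5 and 170 CPM in cells with under 3 Cd3 UMIs (SE 0.11; edgeR adjusted p = 5.38e-95). Tyrobp, the adaptor DAP12 of natural killer and myeloid receptors, stood at 34.3 and 43.9 CPM in members, against 422 and 426 CPM (-3.55 ± 0.09). Cd34, a stem and progenitor cell sialomucin, stood at 15.6 and 18.2 CPM in members, against 173.3 and 198.3 CPM (-3.57 ± 0.11), and Mpo, myeloperoxidase of the granulocyte lineage, at 12.7 and 10.0 CPM in members, against 132.7 and 134.8 CPM (-3.68 ± 0.13). All 4 natural killer and innate lymphoid genes tested fell, with a median of -2.72. Even Nkg7, a granule membrane protein that accompanies granzymes in cytotoxic cells, stood at 110.8 and 132.3 CPM in members, against 247 and 278 CPM (-1.22 ± 0.07).

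Further large rises were in genes outside the lists of T-cell function. H19, an imprinted long noncoding RNA, stood at 32.6 and 82.5 CPM in members, against 1.46 and 2.26 CPM in cells with under 3 Cd3 UMIs (4.84 ± 0.15, edgeR). Epcam, an epithelial adhesion molecule that mouse thymocytes also carry, stood at 38.1 and 37.5 CPM in members, against 1.51 and 1.22 CPM (4.68 ± 0.20). Among the largest falls, Car2, carbonic anhydrase of erythroid and myeloid cells, stood at 6.77 and 10.0 CPM in members, against 135.6 and 116.5 CPM (-4.00). Prtn3, a granule protease of myeloid precursors, stood at 0.423 and 1.11 CPM in members, against 47.2 and 28.6 CPM (-5.66). Of 12 interferon-response genes tested, 3 rose and 7 fell, with a median of -0.45.

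All 23 G2/M genes tested rose, with a median log2 fold change of 1.09, and 12 of 24 S-phase genes rose with 0 lower. Ube2c, a ubiquitin-conjugating enzyme of mitotic exit, stood at 311 and 186.9 CPM in members, against 70.4 and 48.1 CPM (1.94 ± 0.06). These differences were also measured at equal depth. With every cell thinned to 4000 UMIs, again 8 pre-T-cell receptor genes were called higher and 1 lower, all 13 progenitor factors were called lower, Ptcra had a log2 fold change of 6.31 and Lyl1 one of -4.29, and 19 of 23 G2/M genes were higher. The S-phase genes called higher numbered 8 of 24, with a median of 0.14, against 0.27 as counted, and 26.9% of all genes were called.

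Within the Cd3+ cells, most progenitor factors tested fell in members and most G2/M genes rose. Of 7222 genes tested, 776 were higher in members, or 10.7%, and 594 were lower, or 8.22%. Of 13 progenitor factors tested, 0 rose and 11 fell, with a median log2 fold change of -0.88. All 4 natural killer and innate lymphoid genes tested fell, with a median of -0.81. Of 23 G2/M genes, 22 rose, with a median of 0.78, and of 10 pre-T-cell receptor genes 5 fell, with a median of -0.33, against a median of -0.00 for all genes.

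The comparison was repeated at like depth by applying the rule to counts thinned to 4000 UMIs per cell, with shallower cells left out. With all UMIs of the cells so chosen summed, members had median depths of 6101 and 6078 UMIs, against 7020 and 6607 UMIs in the other Cd3+ cells, and 2.14% of genes were called, 0.559% higher and 1.58% lower. Of the 1370 genes called with the rule on all UMIs, 9.78% were called again, and 1198 of the 1350 still tested kept their sign. With only the thinned UMIs of those cells summed, 31 genes were called, 2 higher and 29 lower. Within cells of 4000 to 8000 UMIs, Hbb-bt, Lyl1 and Cpa3 were called, all 3 lower, and no other gene was. Each of these settings also uses fewer cells than the comparison as counted. With the library left out of the model, 2.91% of genes were called, and Ube2c (1.16), Mki67 (0.86), Zap70 (1.18), Il2ra (-0.38) and Hbb-bt (-1.92), described next, were not.

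Progenitor factors were lower in members as counted and in each setting on depth, with fewer calls in those settings. Lyl1 stood at 21.6 and 23.04 CPM in members, against 60.9 and 45.9 CPM in the other Cd3+ cells, a log2 fold change of -1.14 ± 0.17 (edgeR adjusted p = 7.56e-09), and at -1.95 with the rule on thinned counts. Hhex stood at 16.9 and 22.7 CPM in members, against 40.6 and 40.4 CPM (-0.98 ± 0.19, and -2.00 with the rule on thinned counts). Nfe2, a factor of the erythroid and megakaryocyte lineages, stood at 10.6 and 17.5 CPM in members, against 40.6 and 36.4 CPM (-1.37 ± 0.21 and -1.68; -1.85 in replicate 1 and -1.02 in replicate 2). Of the 13 progenitor factors tested, 7 were lower and 0 higher with the rule on thinned counts, with a median of -1.32. With a Cd3 sum of at least 6 in both classes, and no thinning, 8 were lower and 0 higher, with a median of -0.62. In cells of 4000 to 8000 UMIs 1 of 13 was called lower and 0 higher, with a median of -0.65, where Lyl1 was at -2.18 and Hhex, at -0.91, and Nfe2, at -1.65, were not called.

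Genes shared with natural killer and other innate cells were also lower in members. Tyrobp stood at 34.3 and 43.9 CPM in members, against 56.97 and 93.3 CPM in the other Cd3+ cells (log2 fold change -1.003 ± 0.14, edgeR adjusted p = 6.31e-11; -2.17 with the rule on thinned counts). Cd7, an immunoglobulin-family surface protein, stood at 7.19 and 7.06 CPM in members, against 17.2 and 33.2 CPM (-1.92 ± 0.26 and -2.90; -1.15 in replicate 1 and -2.08 in replicate 2). Nkg7 stood at 110.8 and 132.3 CPM in members, against 171.7 and 204.8 CPM (-0.61 ± 0.09 and -0.76), and Runx3, the factor of cytotoxic and innate lymphocytes, at 36.8 and 42.7 CPM, against 71 and 71 CPM (-0.82 ± 0.14 and -1.10). Cells with more Gzma and Sh2d1a thus held less, not more, of these genes, which accompany Gzma in natural killer cells, and of 6 cytotoxic granule genes tested 0 rose and 4 fell (median -0.50). In cells low in G2/M transcripts the Nkg7 difference was -0.23 and was not called, whereas Tyrobp, at -0.99, and Runx3, at -0.67, were.

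Among the further falls was Cpa3, the 1 gene tested of the 10 erythroid, megakaryocyte and mast cell genes. Cpa3, a mast-cell protease also found in early progenitors, stood at 51.6 and 41.3 CPM in members, against 134.2 and 106.03 CPM in the other Cd3+ cells (-1.33 ± 0.12; -0.99, still called, with the rule on thinned counts and -0.73, not called, with the thinned UMIs alone). Nrgn and Rgs18, both abundant in platelets, had log2 fold changes of -1.36 and -1.09, and of -2.25 and -1.91 with the rule on thinned counts; Rgs18 lost the call in cells low in G2/M transcripts, at -0.63. Hbb-bt, a globin gene with a near-identical neighbour, stood at 27.1 and 40.1 CPM in members, against 199.02 and 76.5 CPM, and its difference was -2.83 in replicate 1 and -0.91 in replicate 2. Kit also differed by library, at -0.43 in replicate 1 and -1.16 in replicate 2. Its difference was -0.95 ± 0.19 (edgeR adjusted p = 2.43e-05) and it lost the call with the thinned UMIs alone, at -0.95.

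Division genes rose as counted, and most of their calls were lost in the settings on depth. Ube2c stood at 311 and 186.9 CPM in members, against 126.4 and 105.3 CPM in the other Cd3+ cells, a log2 fold change of 1.07 ± 0.09 (edgeR adjusted p = 9.69e-27). It was 0.36, still called, with the rule on thinned counts and 0.02 with the thinned UMIs alone. Birc5 (survivin) and Mki67 (Ki-67) had log2 fold changes of 0.98 and 0.81, and of -0.03 and -0.05 with the thinned UMIs alone. With the rule on thinned counts 2 of 24 G2/M genes were called, with a median of 0.16, and all 10 calls among S-phase genes were lost. In cells of 4000 to 8000 UMIs 0 of 19 G2/M genes were called, but their median stayed at 0.55, with Ube2c at 0.61, Birc5 at 0.62 and Mki67 at 0.58. Depth and division moved together, and the part of either in the other was not tested: 64.04% and 70% of members, against 85.5% and 82.6% of the other Cd3+ cells, had under 0.1% of their UMIs in G2/M genes.

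Chchd3 and Cycs were among the largest rises within the Cd3+ cells. Chchd3 and Cycs, of the mitochondrial inner membrane and respiratory chain, stood at 179.3 and 173.9 CPM and at 524 and 493 CPM in members, against 106.9 and 92.2 CPM and 267 and 301 CPM in the other Cd3+ cells. Their log2 fold changes were 0.88 ± 0.10 and 0.84 ± 0.07, and 0.61 and 0.36, both called, with the rule on thinned counts. With the thinned UMIs alone they were 0.58 and 0.25, and neither was called. Srm, spermidine synthase, had 0.83, and 0.11 with the rule on thinned counts, which was not called.

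Of the pre-T-cell receptor genes, 5 of 10 were lower in members as counted and 0 were called in the settings on depth. Ptcra stood at 171.3 and 173.6 CPM in members, against 348 and 265 CPM in the other Cd3+ cells, a log2 fold change of -0.77 ± 0.08 (edgeR adjusted p = 2.24e-18), and at -0.08, not called, with the rule on thinned counts. Rag1 stood at 88.8 and 108.9 CPM in members, against 140 and 147.2 CPM (-0.50 ± 0.10), and reversed to 0.21 with the rule on thinned counts. Il2ra stood at 303 and 299 CPM in members, against 429 and 373 CPM (-0.37 ± 0.07, and -0.17, not called). Of the 10 genes of this list, 0 were called with the rule on thinned counts, with a median of 0.03, and 0 in cells of 4000 to 8000 UMIs, with a median of 0.14.

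Among T-lineage factors, 4 rose (Lef1 and Id3 among them) and 6 fell of 19 tested. Tcf7, the factor downstream of Notch that opens the T-lineage programme, stood at 419 and 471 CPM in members, against 295 and 312 CPM in the other Cd3+ cells (0.59 ± 0.07, edgeR adjusted p = 2.62e-15), and at 0.38, still called, with the rule on thinned counts and 0.27, not called, with the thinned UMIs alone. In cells thinned to 4000 UMIs, with the classes of the full counts, Tcf7 was detected in 76.2% and 82.01% of members, against 64.1% and 65.7% of the other Cd3+ cells. Without thinning, the shares were 82.5% and 81.5%, against 71.1% and 65.6%. Lef1 was detected in 35.3% and 35.3% of members, against 16.2% and 16.1% of the other Cd3+ cells, after thinning, and in 48.6% and 37.4%, against 27.2% and 25.1%, without it. In the cells low in both Cd3 and Gzma and Sh2d1a, the thinned share for Lef1 was 0.309% and 0.251%. The share in members was far above that in both libraries, and the part of free RNA in any of these shares was not tested. As a description, the log2 fold change of Lef1 within the Cd3+ cells was 0.53 as counted, 0.71 with the rule on thinned counts and 0.12 in cells low in G2/M transcripts, and that of Thy1 was 0.38, 0.39 and 0.15. That of Id3 was 1.08 as counted and 0.46 with the rule on thinned counts.

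Of 16 T-cell receptor signalling genes, Cd28 among them, 3 rose and 3 fell. Zap70, the kinase recruited to phosphorylated Cd3 chains, stood at 23.7 and 21.6 CPM in members, against 4.68 and 13.1 CPM in the other Cd3+ cells. Its log2 fold change of 1.22 ± 0.29 (edgeR adjusted p = 0.000531) was 2.12 in replicate 1 and 0.68 in replicate 2, and it was 0.51 and not called with the rule on thinned counts. Lck, the kinase that phosphorylates Cd3, stood at 798 and 963 CPM in members, against 1013 and 1053 CPM (-0.19 ± 0.05), and reversed to 0.06 with the rule on thinned counts.

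**Figure D3:**
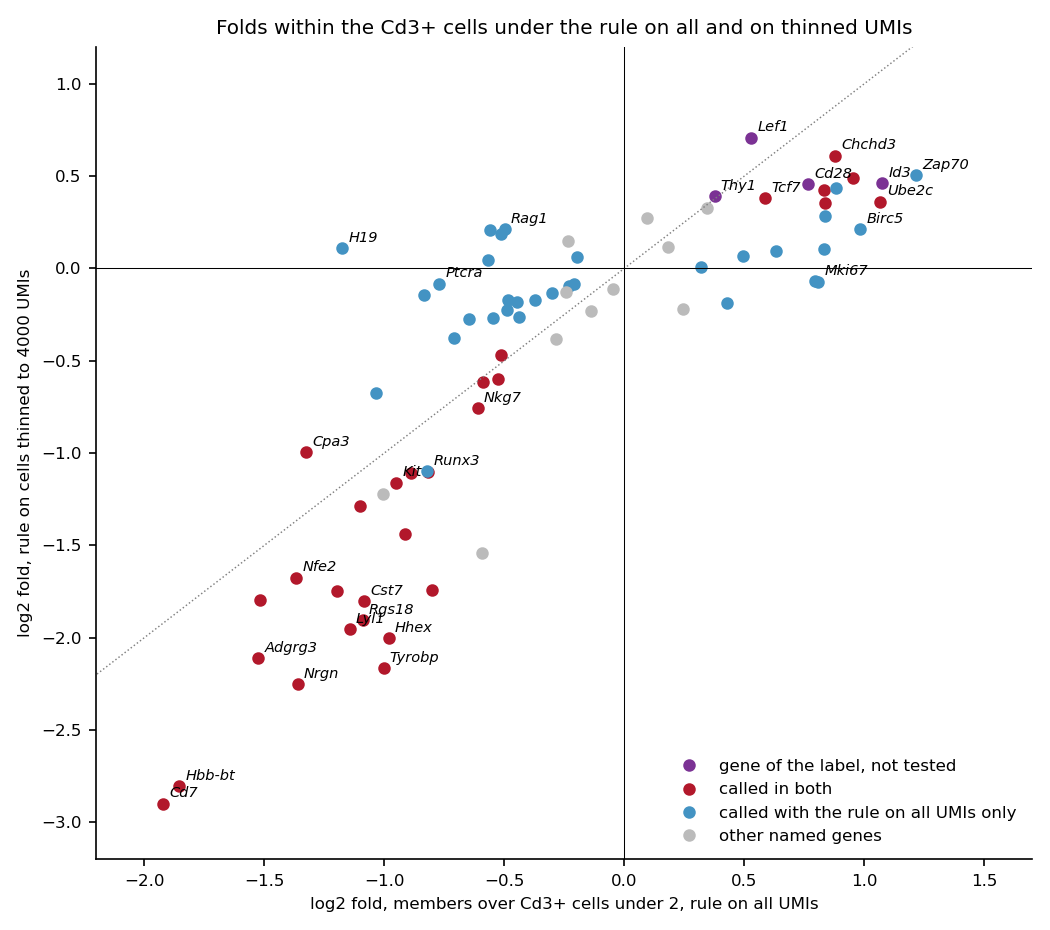
Log2 fold change, members over the other Cd3+ cells, of each named gene with the rule on all UMIs (horizontal) and with the rule on cells thinned to 4000 UMIs (vertical), the dotted line marking equal values. Lyl1, Hhex, Tyrobp and Cd7 lie below the line at -1.95, -2.00, -2.17 and -2.90, whereas Ube2c, Ptcra and Rag1 lie near 0 on the vertical axis, at 0.36, -0.08 and 0.21.

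Within the Cd3+ cells, levels differed between the cells with fewest and most Gzma and Sh2d1a UMIs, but not every level moved evenly between them. From 1 to 2 UMIs, across the threshold, Lef1 rose in replicate 1 and fell in replicate 2. From cells with 0 to cells with 6 or more such UMIs, Lef1 stood at 78.96, 107.02, 130, 121.2 and 193.02 CPM in replicate 1 and at 98.5, 133.7, 90.6, 136.3 and 198.6 CPM in replicate 2, over the classes 0, 1, 2, 3 to 5, and 6 or more. Progenitor factors summed to 503, 373, 302, 283 and 157.3 CPM in replicate 1 and 493, 381, 371, 238 and 202.2 CPM in replicate 2. Their sum was lower in every class than in the class before it in both libraries. Ptcra stood at 117.96 and 88.5 CPM in the cells with 6 or more UMIs, against 336 and 267 CPM in the cells with 0. Median depth ran from 3948 to 11536 UMIs in replicate 1 and from 3459 to 7721 in replicate 2 along the same classes, and its part in these trends was not tested beyond the settings above.

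**Figure D4:**
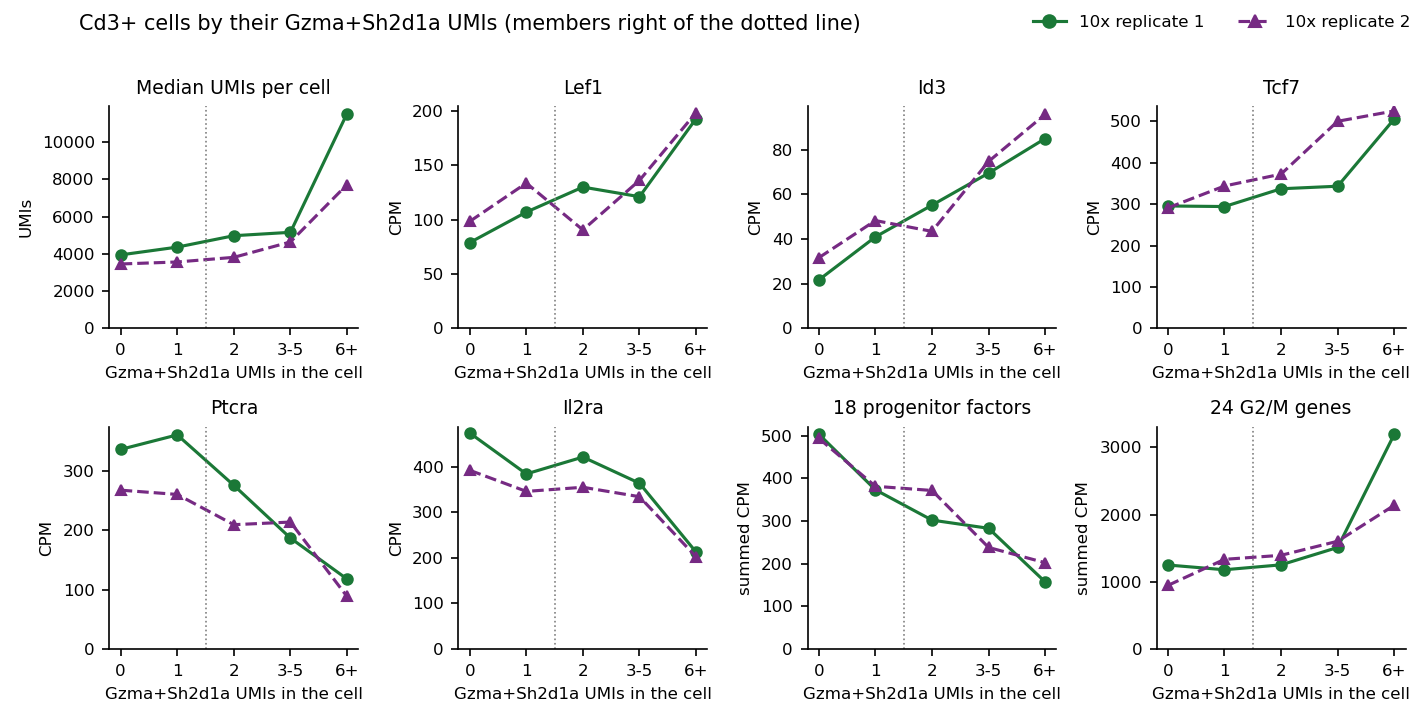
Median UMIs per cell and summed CPM of 7 genes or lists in Cd3+ cells by their Gzma and Sh2d1a UMIs, with members to the right of the dotted line and green circles and purple triangles for 10x replicates 1 and 2. Progenitor factors decline from 503 to 157.3 CPM and from 493 to 202.2 CPM, Ptcra and Il2ra are lowest and G2/M genes and depth highest in cells with 6 or more UMIs.

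The members were not uniform. Cells with Gzma alone had Id3 at 29.2 and 51.1 CPM, Lyl1 at 43.7 and 39.04 CPM and Ptcra at 135.4 and 142.6 CPM. Cells with Sh2d1a alone had Id3 at 87.1 and 89.7 CPM, Lyl1 at 30.3 and 21.7 CPM and Ptcra at 220 and 294 CPM. Cells with both had Id3 at 85.1 and 76.6 CPM, Lyl1 at 13.6 and 16.9 CPM and Ptcra at 173.995 and 159.3 CPM. In both libraries Id3 was lowest and Lyl1 highest in the cells with Gzma alone, and Ptcra was highest in the cells with Sh2d1a alone. Median depth was 5771 and 4407 UMIs with Gzma alone, 5363 and 4257 with Sh2d1a alone and 7540 and 5451 with both, and the smallest group held 39 cells, with Sh2d1a alone in replicate 1.

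Gzma without Cd3 marked other cells. Gzma stood at 437 and 466 CPM in members, against 287 and 423 CPM in the Cd3-low Gzma+ cells. Sh2d1a stood at 306 and 293 CPM in members, against 23.95 and 17.6 CPM in the Cd3-low Gzma+ cells, so those cells were chosen almost wholly on Gzma. Of 7214 genes tested between the members and these cells, 524 were higher in members, or 7.26%, and 709 were lower, or 9.83%. In members 9 of 10 pre-T-cell receptor genes rose and 0 fell (median log2 fold change 1.19, all genes -0.01), 9 of 14 T-cell receptor signalling genes rose and 0 fell, and 10 of 13 progenitor factors fell and 0 rose (median -1.39).

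Ptcra stood at 171.3 and 173.6 CPM in members, against 1.497 and 5.28 CPM in the Cd3-low Gzma+ cells (log2 fold change 5.68 ± 0.34, edgeR adjusted p = 1.64e-25; 6.11 in replicate 1 and 4.796 in replicate 2). Notch3, a Notch receptor induced with the pre-T-cell receptor, stood at 46.9 and 47.6 CPM in members, against 5.99 and 3.52 CPM (3.23 ± 0.41; 2.78 and 3.43 by library). Ccr9, the receptor for thymic chemokine CCL25, stood at 50.3 and 51.7 CPM in members, against 2.99 and 0 CPM (4.89 ± 0.60; 3.68 in replicate 1), where the second library had no UMI in 73 cells. Lck and Lat were less apart, at 0.76 ± 0.07 and 0.78 ± 0.09. Of the same signalling list, Skap1 was at 1.202 ± 0.15 and Cd28 at 3.28 ± 0.39.

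All 4 natural killer and innate lymphoid genes tested and both erythroid, megakaryocyte and mast cell genes tested were lower in members than in the Cd3-low Gzma+ cells. Cpa3 stood at 51.6 and 41.3 CPM in members, against 359 and 458 CPM in the Cd3-low Gzma+ cells (-3.19 ± 0.13; -2.78 and -3.44 by library). Fcer1g, the shared signalling chain of Fc receptors, stood at 12.3 and 15.2 CPM in members, against 180 and 207.8 CPM (-3.86 ± 0.18). Cst7, a cystatin of cytotoxic granules, stood at 20.7 and 15.6 CPM in members, against 136.2 and 95.1 CPM (-2.76 ± 0.20). Kit stood at 19.5 and 19.7 CPM in members, against 68.9 and 132.1 CPM (-2.40 ± 0.22; -1.77 and -2.68 by library), and Il7r, the interleukin-7 receptor, at 72.7 and 67.6 CPM, against 110.8 and 195.5 CPM (-1.17 ± 0.15; -0.60 and -1.52 by library). In cells thinned to 4000 UMIs, with the rule applied anew, the call held for Ptcra (3.89), Ccr9 (3.93), Cpa3 (-3.30), Fcer1g (-4.57), Cst7 (-3.50), Kit (-2.53) and Il7r (-1.04). It was lost for Notch3 (1.67) and for Ube2c (0.33, against 1.33 as counted). Elane stood at 0 and 0.372 CPM in members, against 53.9 and 1.76 CPM in the Cd3-low Gzma+ cells, and Mcpt8 at 0.423 and 0.372 CPM, against 2.99 and 84.5 CPM, so the difference in each of these granule proteases came from 1 library.

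Over the whole transcriptome the members lay among the Cd3+ cells. For each cell, the 20 nearest cells of its library were found over 30 principal components of 2000 variable genes, with the 5 genes of the rule left out. Counts were scaled to each cell's total but not thinned for this step. Of the members' neighbours, 62.9% and 54.5% were members, 26.3% and 36.8% were other Cd3+ cells, and 89.2% and 91.3% were Cd3+ in all. Of the neighbours of the other Cd3+ cells, 40.9% and 33.5% were members, 39.2% and 47.8% were their own kind and 18.6% and 17.8% were cells low in both. Members made up 5.99% and 5.45% of all cells, and the other Cd3+ cells 4.67% and 6.89%. The Cd3-low Gzma+ cells had only 7.11% and 5.07% Cd3+ neighbours, below the 10.7% and 12.3% of Cd3+ cells among all cells. Both classes of Cd3+ cells thus had mostly Cd3+ neighbours, with members and non-members among them, unlike the Cd3-low Gzma+ cells. The mixing was not even, since members had a larger share of members as neighbours than the other Cd3+ cells had. Cells were not clustered, so the number of groups among them was not tested.

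Among the C1 cells with at least 1000 genes above 1 FPKM, 7 had 1 Cd3 gene above 1 FPKM and 0 had 2. How often the C1 libraries detect these genes in cells that express them was not measured, so no limit on the share of such cells is given. Gzma was detected in 5 of the C1 cells and Sh2d1a in 2. The C1 table is in FPKM and not UMIs, so the rule itself could not be applied there.

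In the bulk libraries, Cd3g, Gzma, Sh2d1a, Lef1 and Ptcra were high together in single libraries of the ETP gates. Gzma stood at 12.4 and 1.62 FPKM in Flt3+ ETP, 11.5 and 1.14 FPKM in Flt3- ETP, 2.46 and 1.89 FPKM in total ETP, 6.26, 3.30 and 7.37 FPKM in Bcl11b- DN2a and 12.1, 14.1 and 30.8 FPKM in Bcl11b+ DN2a. The first value is replicate 1, and the last value of every population but total ETP is the library whose column carries no number. Per the sample titles, each of those populations has a SMART-Seq library, taken here to be the column without a number. Protocol thus cannot be told apart from other differences between that library and the rest. Sh2d1a stood at 2.36 and 0.811 FPKM in Flt3+ ETP, 1.52 and 0.175 FPKM in Flt3- ETP, 0 and 0 FPKM in total ETP, 0.854, 0.046 and 0.819 FPKM in Bcl11b- DN2a and 1.17, 1.697 and 5.83 FPKM in Bcl11b+ DN2a. Bcl11b+ DN2a held the highest single values of both genes, in its library without a number. The libraries of the ETP gates did not agree among themselves.

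Cd3g stood at 52.5 and 5.42 FPKM in Flt3+ ETP, 39.9 and 0.71 FPKM in Flt3- ETP, 0.831 and 1.17 FPKM in total ETP, 19.8, 0.801 and 4.77 FPKM in Bcl11b- DN2a and 51.1, 34.5 and 90.6 FPKM in Bcl11b+ DN2a. Lef1 stood at 2.61 and 0.654 FPKM in Flt3+ ETP, 1.82 and 0.028 FPKM in Flt3- ETP, 0.191 and 0.177 FPKM in total ETP, 1.33, 0.134 and 0.375 FPKM in Bcl11b- DN2a and 1.27, 0.562 and 0.958 FPKM in Bcl11b+ DN2a. Ptcra stood at 5.78 and 0.691 FPKM in Flt3+ ETP, 4.09 and 0.083 FPKM in Flt3- ETP and 0.244 and 0.159 FPKM in total ETP. In the replicate 1 libraries of both Flt3 fractions all 5 genes stood above both total ETP libraries, so no order of the ETP populations is read from these genes. No test was made on the bulk values, in which fewer cells of a type and less RNA per cell cannot be told apart.

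**Figure D5:**
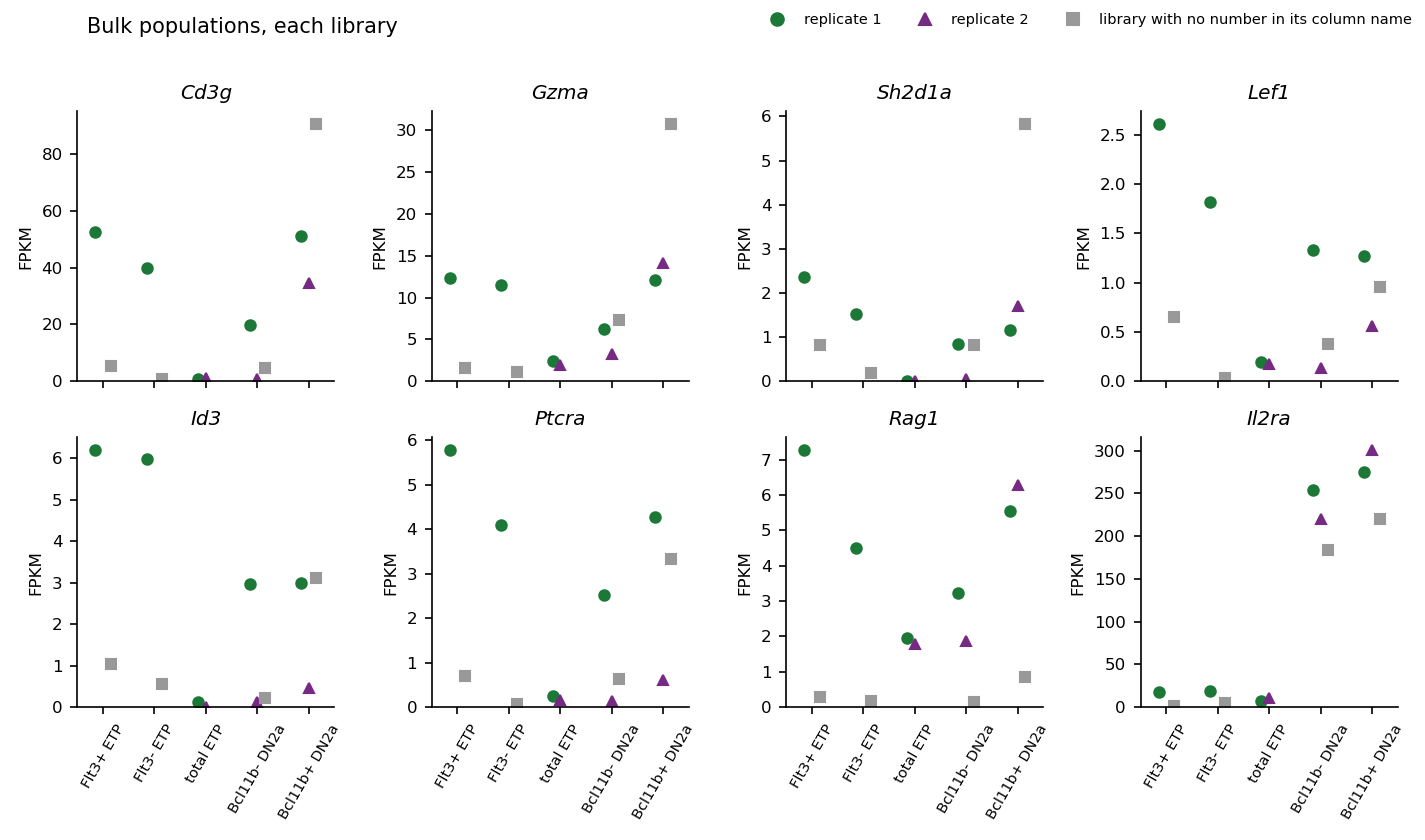
FPKM (linear axes) of 8 genes in each bulk library of 5 sorted populations, with circles for replicate 1, triangles for replicate 2 and squares for the library with no number in its column name. The squares are taken to be the SMART-Seq libraries of the sample titles. The replicate 1 circles of Flt3+ ETP (Cd3g 52.5 FPKM, Lef1 2.61 FPKM) and Flt3- ETP (Cd3g 39.9 FPKM, Lef1 1.82 FPKM) stand above the other ETP libraries, which lie at 0.71 to 5.42 FPKM for Cd3g.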

How the data were processed

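Per the labels and the submitters' processing notes, the 10x libraries were processed with Cell Ranger 2.0 against mm10, and the authors deposited UMI counts per gene and cell. The C1 and bulk tables hold FPKM values deposited by the authors, and the same notes list STAR 2.4.0, RSEM 1.2.25, HOMER and edgeR 3.6.8 without saying which made them. The choice of cells and all gene lists were made with earlier results of these data known. UMIs were summed per library and class and tested with edgeR 4.0.16 (quasi-likelihood F test, TMM, library as block, since members and their comparators share a library), over genes with a mean of at least 10 CPM, with Benjamini-Hochberg adjustment over all genes tested at 0.05. The spread left after the library block was near Poisson (biological coefficient of variation 0.0289), so p-values lie close to the counting error of the summed UMIs. Named genes were the 10 largest rises and falls per comparison among called genes with a mean of at least 50 CPM and the same sign in both libraries, and up to 4 genes per list by smallest p. The genes of the rule, predicted, ribosomal and mitochondrial genes were left out of that ranking, and a few genes that the rule names are not reported here. On simulated counts for the comparison within the Cd3+ cells, 90% of 200 genes changed by 1 log2 unit were recovered among 7222 genes, and 7.22% of calls were false. Recovery was 98.5% against all cells with under 3 Cd3 UMIs and 62.5% against the Cd3-low Gzma+ cells. The simulation used the fitted spread, with no library effect and no choice of cells by the rule, so it cannot speak for the calls on the real counts. No doublet caller was used, so doublets were not assessed. Leaving out the 5% of cells with the most UMIs need not remove doublets that hold the shallower Cd3+ cells. Per the column names, 1 library in each of 4 bulk populations carries no number and was mapped to its group alone. The sample titles name a SMART-Seq library in each of these populations, and the unnumbered column was taken to be that library.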

Additional observations from a re-analysis of the deposited data

How the results depend on the processing

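With 2 libraries, counts of calls could not be recomputed without either one, and the folds of each library are given beside the genes they move. Library as a replicate block was the pairing used. Settings named as thinned took cells of at least 4000 UMIs, applied the rule anew to the thinned counts and summed only those. Within the Cd3+ cells 18.97% of genes were called, against 2.91% with no replicate block, 8.79% with DESeq2, 12.4% in cells past stricter limits (1500 genes, 5% of UMIs mitochondrial), 0.432% in cells thinned to 4000 UMIs and, in settings chosen after the data were seen, 3.75% in cells low in G2/M UMIs, 2.14% with the rule on thinned counts and 0.0417% in cells of 4000 to 8000 UMIs. Against all cells with under 3 Cd3 UMIs 47.7% were called, against 28.97% with no replicate block, 28.6% with DESeq2, 26.9% thinned, 31.2% low in G2/M and 26.6% at 4000 to 8000 UMIs. Against the Cd3-low Gzma+ cells 17.1% were called, against 9.18% with no replicate block, 3.41% thinned, 11.2% low in G2/M, 7.39% with the rule on thinned counts and 4.84% at 4000 to 8000 UMIs. These settings use fewer cells, a different dispersion or no library term, and the cause of each loss was not tested further. Further settings were RLE factors, the top 5% of cells left out, a Cd3 sum of at least 6 and at least 4 Gzma and Sh2d1a UMIs. There the number of genes called stayed between 935 and 1918 within the Cd3+ cells. It lay between 3225 and 3462 against all cells with under 3 Cd3 UMIs, and between 1082 and 1593 against the Cd3-low Gzma+ cells. With no filter on low counts, 16612 genes were tested and the share called was lower. It was 7.28% (1209 genes) within the Cd3+ cells and 27.7% (4602 genes) against all cells with under 3 Cd3 UMIs. Against the Cd3-low Gzma+ cells it was 7.58% (1260 genes).

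Of the genes reported here, log2 fold changes within the Cd3+ cells changed sign as follows. In cells thinned to 4000 UMIs they were -0.031 for Birc5, -0.047 for Mki67, -0.072 for Slbp, -0.38 for Tyms, -0.43 for Nusap1, 0.020 for Bst2, 0.11 for Lck, 0.12 for Cd79b, 0.17 for Ccr9, 0.18 for Lyz2, 0.23 for H19, 0.35 for Epcam and 0.38 for Rag1. With the rule on thinned counts they were -0.070 for Nusap1, -0.071 for Mki67, -0.19 for Tyms, 0.046 for Cd79b, 0.062 for Lck, 0.11 for H19, 0.19 for Epcam, 0.21 for Ccr9 and 0.21 for Rag1. At 4000 to 8000 UMIs they were -0.055 for Slbp, 0.0086 for Pecam1, 0.030 for Cd79b, 0.031 for Lck, 0.034 for H19, 0.12 for Dtx1, 0.30 for Ccr9, 0.35 for Rag1, 0.46 for Epcam and 0.63 for Id2. In cells past the stricter limits on genes and mitochondrial UMIs they were 0.035 for Lck, 0.078 for Rag1, 0.14 for Dtx1 and 0.22 for Ccr9. Against the Cd3-low Gzma+ cells, Mpo was 1.38 thinned, 0.76 with the rule on thinned counts, 1.56 at 4000 to 8000 UMIs, 0.22 low in G2/M and 0.42 without the top 5% of cells. There, Ung was 0.0058 and Mcm3 0.18 thinned, Ung 0.12 and Il2ra 0.014 at 4000 to 8000 UMIs, and Mki67 -0.20 low in G2/M. No called gene reported against all cells with under 3 Cd3 UMIs changed sign.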
